A study of Homo sapiens with 8 samples.

Results

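Genes of the extracellular matrix, of its cell-surface receptors and of the enzymes that cut it were compared in 2 sorted fractions of MIA PaCa-2 cells, one of which lets lactic acid through poorly (PHLac-low) and the other readily (PHLac-high). The genes were chosen by symbol, with earlier results of these data known. The symbols were those of collagens, laminins, integrins, cadherins, protocadherins, ADAM and ADAMTS enzymes, matrix metalloproteinases, TIMPs, serpins, thrombospondins, fibulins, fibrillins and lysyl oxidases. Of the 3666 genes in the deposited table, 58 matched, and 56 of them fell into 4 classes: 27 matrix genes, 10 receptors, 13 proteases and 6 protease inhibitors. The other two, the antisense transcript ITGB2-AS1 and the pseudogene SERPINB9P1, matched the letters only and were put in no class. Because the table holds only genes that the authors' own test had passed, genes of these families that did not pass were not analysed here, and a count of differing members says nothing about the families as a whole.

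MIA PaCa-2 is an established human pancreatic ductal adenocarcinoma line, labelled wild type and untreated. Cells of both fractions met lactate-containing medium briefly and were washed before the sort, which took the extremes of a phenotype that the design text calls a measure of metabolic rate. RNA was sequenced from 4 PHLac-low and 4 PHLac-high samples, each repeat of the sort giving 1 of each. The labels do not say whether repeats came from separate cultures, so p-values measure only the spread between these samples. In bulk RNA, fewer expressing cells and less RNA per cell cannot be told apart.

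Collagens are trimeric proteins that assemble into fibrils, networks or beaded filaments, and laminins are trimers of an alpha, a beta and a gamma chain that form basement membranes with COL4A collagens. Integrins are alpha-beta receptor pairs that link this matrix to the actin cytoskeleton, while cadherins join neighbouring cells. Metalloproteinases of the MMP, ADAM and ADAMTS families cut matrix and cell-surface proteins, TIMPs block them, and serpins block serine proteases. Pancreatic ductal tumours are known for a dense collagen-rich stroma, most of it made by fibroblasts and stellate cells, but carcinoma cells transcribe matrix genes too.

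Values are normalised counts, which are reads per gene divided by 1 size factor per library. Reads in the listed genes ranged from 8979276 to 23176205 per library, which is part of each library and not its depth. Means over the 8 libraries ran from 11.4 (LAMB4) to 59870.0 (COL5A2) normalised counts, and the median member had 1013. Changes are PHLac-high minus PHLac-low on the scale log2(normalised count + 1), which understates the change of low genes, and are tested by limma with the repeat as a block and Benjamini-Hochberg adjustment over all 3666 genes at 0.05. Of all listed genes 99.9% passed this test, 58.7% as higher and 41.2% as lower in PHLac-high, so passing it is a property of the table. Rescaling each library to its upper quartile over the table (upper-quartile scaling) took the median change of all listed genes from 0.245 to 0.021, so increases near the first value depend on the authors' scaling. The quartile was taken over listed genes only, most of them higher in PHLac-high. Scaling on such a list in itself pulls its median towards 0 and makes falls larger, so it cannot show which scaling is right. The PHLac-low library of repeat 4 stood apart from the rest of its group: it was the lowest PHLac-low library for 37 of the 58 genes (63.8%), against 36.7% of all listed genes. In PHLac-high, repeat 4 likewise gave the lowest value for 37 genes, against 41.6% of all. For some of the genes that repeat 4 moved, the value without it is given as well. Others moved too, such as ADAMTS10 (from -0.72 to -0.52 without repeat 4) and FBN1 (from -0.74 to -0.60).

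Of the cell type markers looked for, few were in the table. Among 10 markers of carcinoma epithelium it held KRT19 and CLDN7, with a summed normalised count of 15032 to 22798 in PHLac-low and 14869 to 24087 in PHLac-high. Nearly all of it was KRT19, which changed by 0.23 ± 0.08, while the scarce CLDN7 changed by -0.88 ± 0.18 (SE, limma adjusted p = 0.0243 and 0.00268). The mesenchymal list of 8 gave SNAI2, at 121 to 341 in PHLac-low and 719 to 882 in PHLac-high. The fibroblast list of 10 gave COL1A1, COL3A1 and ACTA2, the leukocyte list of 6 gave PTPRC, CD68 and ITGB2, and none of 4 endothelial markers was listed. The fibroblast markers summed to 5927 to 9625 in PHLac-low and to 2725 to 4695 in PHLac-high, mostly COL3A1, and the leukocyte markers to 1313 to 2224 and 1268 to 3472. All samples are of 1 cell line, and the part of these markers in the results below was not tested.

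Most of the 58 genes were lower in PHLac-high: 41 fell and 17 rose, where 41.2% and 58.7% of the table did. By number of genes, the fall ran through the matrix genes (21 of 27), the adhesion receptors (8 of 10) and the proteases (10 of 13). In the authors' scaling 5 of 6 protease inhibitors rose (1 of them, TIMP1, stood at -0.03 under upper-quartile scaling). Summed normalised counts of matrix genes fell in each repeat. Those of receptors, mostly ITGB1, rose in each: 50658, 53127, 56299 and 49917 in PHLac-low and 62822, 61227, 67165 and 53916 in PHLac-high. Those of proteases, mostly MMP1 and ADAM9, rose in each but repeat 4: 39037, 58902, 47368 and 44027 against 53917, 87298, 78236 and 41991. Sums of all listed genes rose in each repeat too. Of the genes that fell, 8 stood at 0.10 or less above 0 once each library was adjusted for transcript GC content and length: COL4A2, COL6A2, COL26A1, ITGB4, PCDHGC3, ADAM11, ADAMTS7 and MMP17. The median log2 change was -0.45 for matrix genes, -0.60 for receptors, -0.49 for proteases and 0.31 for inhibitors, against 0.25 for all listed genes. All 4 repeats changed the same way in 53 of the 58 genes (96.1% of the table). The values of the fractions did not overlap for 20 genes, 13 of them lower and 7 higher, which is 34.5% against 36.7% of the table. Under upper-quartile scaling 41 members passed as lower and 5 as higher, and those that no longer passed included LAMA2, LAMA4, THBS2, COL6A3, LOXL2, ITGB1, ADAM9, SERPINB6, SERPINB8, SERPINB9 and TIMP1.

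Promoter windows of RefSeq (GRCh38.p14, from 250 bases before to 50 after each start) were matched by symbol for 40 of the 58 genes, which had 53 windows. Shown here are the stretches upstream of genes whose pairing or contrast the results turn on. The first is the whole interval of 126 bases between the starts of COL4A1 and COL4A2, a pair transcribed in opposite directions, at chr13:110307158-110307283 on the plus strand, with CCAAT letters in capitals. The others are the 250 bases before the start of MMP10 (chr11:102780629-102780878, minus strand), which fell while its neighbour MMP1 rose, and before the third listed start of LAMB3, 1051 bases downstream of its first (chr1:209651375-209651624, minus strand), the matrix gene that rose most. In these, capitals mark matches to the AP-1 letters TGANTCA and, for MMP10, the TATA box letters TATAAA.
COL4A1-COL4A2: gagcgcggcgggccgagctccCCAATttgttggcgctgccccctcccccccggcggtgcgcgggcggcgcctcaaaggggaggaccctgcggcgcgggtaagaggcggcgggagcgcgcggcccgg
MMP10: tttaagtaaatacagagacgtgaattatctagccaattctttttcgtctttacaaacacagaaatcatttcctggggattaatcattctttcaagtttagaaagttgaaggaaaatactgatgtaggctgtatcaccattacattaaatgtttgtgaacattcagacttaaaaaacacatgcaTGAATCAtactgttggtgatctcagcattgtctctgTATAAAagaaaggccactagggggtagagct
LAMB3: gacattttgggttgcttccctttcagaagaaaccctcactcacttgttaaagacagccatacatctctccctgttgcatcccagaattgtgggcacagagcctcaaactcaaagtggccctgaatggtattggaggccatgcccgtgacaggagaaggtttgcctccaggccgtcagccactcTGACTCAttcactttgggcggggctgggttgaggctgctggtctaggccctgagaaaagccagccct

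The COL4A interval had a GC content of 80.2%, against 34.4% for the MMP10 and 54.0% for the LAMB3 stretch. AP-1 letters began 67 bases before the start in both MMP10, which was lower in PHLac-high, and LAMB3, which was higher. LAMB3 has 3 windows in the table, and the printed one was chosen because it holds these letters, so its match was fixed in advance. The other LAMB3 windows hold no match. Over both strands, TGANTCA was found in 3 of the 53 member windows (5.66%) and in 7.71% of all 35116 windows of the same length. The STAT letters TTCNNNGAA were in 9.43% of member windows and 7.66% of all, the heat shock element GAANNTTC in 7.55% and 6.77%, the short SMAD letters CAGACA in 18.9% and 16.9%, TATAAA in 18.9% and 11.5%, and CCAAT, added after the values were seen, in 34.0% and 34.6%. The SMAD palindrome GTCTAGAC was in 0 member windows and in 0.202% of all. No pattern's letters contain another's. A match here describes letters and not a bound site, and overlapping windows of 1 gene share bases.

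COL3A1 (Entrez 1281; chromosome 2, 188974373 to 189012746, GRCh38.p14) encodes the chain of type III collagen, which forms thin fibrils alongside type I. Its normalised counts in repeats 1 to 4 were 8814, 8916, 9309 and 5681 in PHLac-low and 4119, 4473, 3793 and 2576 in PHLac-high. Every PHLac-high library lay below every PHLac-low library. The mean fell from 8179.8 ± 1679.6 to 3741 ± 824 (SD, n = 4), or 2.19-fold, and on the log2 scale the change was -1.13 ± 0.06 (SE; adjusted p = 1.27e-05 by limma). Within repeats the change was -1.10, -0.99, -1.29 and -1.14, so repeat 4, although its level was low in both fractions, changed as much as the others. Only 6 of the 58 genes had a more negative mean change: COL11A1, PCDH17, LAMB4, CDH10, ITGB2 and ITGB2-AS1, all of them scarce, with PHLac-low means of 17.8 to 193 normalised counts.

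Over the 8 libraries, the members with the pattern most like COL3A1 (Pearson r of log2 values, as a description, among 46 other members with a mean of at least 100) were LAMA5 (0.95), COL11A1 (0.92), LAMB2 (0.90), LAMB1 (0.89) and ADAMTS4 (0.88). The most opposite were ADAM9 (-0.93), LAMB3 (-0.87) and ITGB1 (-0.86). Outside the 58, the most similar genes were TCIRG1 (0.995), CNTNAP3B (0.993), ACTA2 (0.986), TOX2 (0.984) and JAZF1 (0.983), among 3258 candidates. All of these genes share the split into 2 fractions that selected the table.

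**Figure D1:**
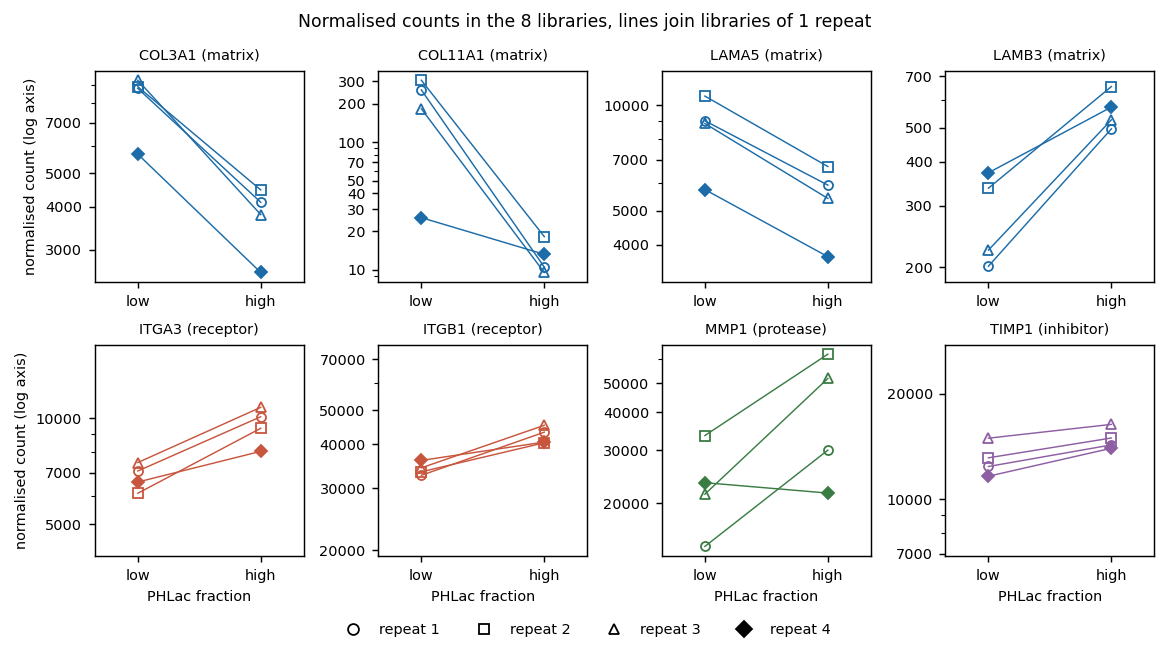
Normalised counts (log axis) of 8 genes in the PHLac-low and PHLac-high library of each repeat, with a line joining the libraries of 1 repeat and filled diamonds for repeat 4. COL3A1 and LAMA5 fell in all 4 repeats, COL11A1 fell from a much lower start in repeat 4, MMP1 rose in repeats 1 to 3 only, and TIMP1 rose slightly in all 4 in the authors' scaling but not on average under upper-quartile scaling.

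Collagens were nearly all lower in PHLac-high: 13 of 14 fell and 1 rose, where 41.2% and 58.7% of all listed genes did. Their median log2 change was -0.55. After GC and length correction 7 passed, against 74.4% of all listed genes: 6 lower and 1 higher, against 25.0% and 49.4%. COL4A2, COL6A2 and COL26A1 were no longer below 0. The most abundant by far was COL5A2 (Entrez 1290), a chain of the type V collagen that regulates fibril width. Its counts were 77415, 57765, 61766 and 71539 in PHLac-low and 58757, 44493, 47346 and 59877 in PHLac-high, which overlap between repeats, and it changed by -0.35 ± 0.05 (SE, limma adjusted p = 0.000572). Its partner chain COL5A1 (Entrez 1289) changed by -0.81 ± 0.10, from 1795 ± 791 to 1059.9 ± 503 (SD, n = 4), and by -0.50 after GC and length correction. Per kb of transcript, COL5A2 stood at 9479 in PHLac-low and COL5A1 at 212. COL5A2 lies 19151 bases from COL3A1 on chromosome 2.

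COL11A1 (Entrez 1301), a minor chain of fibrils, had the most negative change of all 58 genes. It had 257, 306, 183 and 25.7 normalised counts in PHLac-low and 10.5, 18.2, 9.54 and 13.2 in PHLac-high, the latter resting on 8 to 18 reads per library. Repeat 4 stands out: its PHLac-low library had about as little COL11A1 as the PHLac-high libraries, yet still more than each of them. On the log2 scale COL11A1 changed by -3.38 ± 0.54 (SE, limma adjusted p = 0.000842). Repeats 1 to 4 gave -4.486, -3.999, -4.127 and -0.906, and leaving out repeat 4 gave -4.20.

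Among the other fibril collagens, COL27A1 (Entrez 85301) fell from 2468 ± 194 to 1472 ± 131 (SD, n = 4), a change of -0.75 ± 0.07 (SE, limma adjusted p = 0.000128), with no overlap between the groups. It still passed after GC and length correction, at -0.39. COL1A1, a main chain of type I collagen, was scarce, at 191, 179.7, 83.4 and 92.4 in PHLac-low and 126, 84.1, 60.8 and 68.8 in PHLac-high, and changed by -0.64 ± 0.17. COL7A1, the collagen of the fibrils that anchor epithelial basement membranes, changed by -0.79 ± 0.12, and COL9A3, which decorates cartilage fibrils, by -0.74 ± 0.18. After GC and length correction COL7A1 stood at -0.36 and passed, while COL1A1 (-0.26) and COL9A3 (-0.25) did not (limma adjusted p = 0.182 and 0.24). COL26A1 changed by -0.41 ± 0.11.

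Type VI collagen, a beaded filament built of different chains, did not change in 1 direction. COL6A1 (Entrez 1291) was at 13124, 14139, 16658 and 10726 in PHLac-low and 10316, 10927, 12327 and 7104 in PHLac-high. COL6A2 (Entrez 1292), 93063 bases away on chromosome 21, was at 8059, 8777, 11285 and 5753 in PHLac-low and 6396, 7111, 8752 and 3278 in PHLac-high. Both were lower within each repeat, by -0.44 ± 0.06 and -0.45 ± 0.09 on the log2 scale (SE, limma). COL6A3 (Entrez 1293), which lies on another chromosome, was the 1 collagen that rose: 2035, 2649, 2314 and 1947 in PHLac-low and 3029, 3446, 3585 and 2101 in PHLac-high, a change of 0.42 ± 0.09 (SE, limma adjusted p = 0.00283). Repeats 1 to 4 gave 0.57, 0.38, 0.63 and 0.11, the smallest in repeat 4, and the change was 0.53 without it. The transcripts of COL6A1 and COL6A2 have a GC content of 63.5% and 66.4%, that of COL6A3 53.2%. After GC and length correction the changes were -0.01, 0.03 and 0.45, and among them only COL6A3 still passed (limma adjusted p = 0.000688).

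The basement membrane pair COL4A1 and COL4A2, whose shared upstream interval is printed above, fell by similar small amounts, with log2 changes of -0.27 ± 0.08 and -0.32 ± 0.06 (SE, limma adjusted p = 0.00828 and 0.00183). Counts of COL4A1 were 1333, 1286, 1137 and 1074 in PHLac-low and 1152, 925, 975 and 943 in PHLac-high. For COL4A2 they were 3121, 3657, 3806 and 2343 in PHLac-low and 2647, 2988, 3099 and 1732 in PHLac-high, and both genes' groups overlapped. With GC and length correction they stood at -0.12 and 0.10, neither of which passed (limma adjusted p = 0.171 and 0.187).

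Laminins changed in both directions: 4 of 7 fell and 3 rose, where 41.2% and 58.7% of all listed genes did. Alpha and beta chains were found on both sides. LAMA5 (Entrez 3911), the alpha chain of the main laminin of mature epithelial basement membranes, was the most abundant laminin per kb, at 749.6 in PHLac-low and 476 in PHLac-high. Its counts were 9027, 10615, 8869 and 5751 in PHLac-low and 5922, 6689, 5426 and 3704 in PHLac-high, a change of -0.65 ± 0.05 (SE, limma adjusted p = 5.27e-05). Repeats 1 to 4 gave -0.61, -0.67, -0.71 and -0.63, and the fractions overlapped only through the low PHLac-low library of repeat 4. The beta chains LAMB1 (Entrez 3912) and LAMB2 (Entrez 3913), which pair with it, changed by -0.77 ± 0.08 and -0.58 ± 0.06. For neither beta chain did the groups overlap. After GC and length correction LAMA5 stood at -0.21, LAMB1 at -0.74 and LAMB2 at -0.21, each still past the threshold.

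LAMB3 (Entrez 3914), the beta chain of the laminin that anchors epithelia, moved the other way. Counts were 202, 336, 224 and 372 in PHLac-low and 496, 654, 526 and 572 in PHLac-high. All 4 PHLac-high libraries exceeded all 4 PHLac-low libraries, and the change of 1.03 ± 0.13 (SE, limma adjusted p = 0.00028) is 2.04-fold. It was the largest increase among the 58 genes, and became 1.31 after GC and length correction.

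The alpha chains LAMA4, found in vessel and nerve basement membranes, and LAMA2, the muscle chain, rose less. LAMA4 went from 184 ± 11.8 to 264 ± 72.8 and LAMA2 from 998 ± 273 to 1324 ± 549 (SD, n = 4), with changes of 0.48 ± 0.15 and 0.35 ± 0.12. LAMA2 was 0.31, 0.66, 0.52 and -0.11 in repeats 1 to 4 and 0.50 without repeat 4, and it no longer passed without repeat 2 or without repeat 3 (limma adjusted p = 0.112 and 0.0827). LAMA4 did not pass without repeat 3 (limma adjusted p = 0.073). LAMB4, next to LAMB1 on chromosome 7, was barely detected, with 3 to 6 reads per PHLac-high library and 8 to 57 per PHLac-low library, and changed by -1.57 ± 0.44.

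All 3 fibulin and fibrillin genes in the table fell, where 41.2% of all listed genes did. FBN1 (Entrez 2200), the main microfibril protein, had 335, 241, 334 and 333 normalised counts in PHLac-low and 212, 167, 218 and 148 in PHLac-high and changed by -0.74 ± 0.13 (SE, limma adjusted p = 0.00152). FBLN5, which binds elastin, changed by -0.95 ± 0.17, from 107 ± 27.1 to 55.5 ± 18.6 (SD, n = 4), and FBLN1, a basement membrane and elastic fibre protein, by -0.35 ± 0.08. For all 3, no PHLac-high value reached a PHLac-low value, which held for 13.4% of all listed genes. FBLN1 was -0.16 after GC and length correction, which did not pass (limma adjusted p = 0.0979).

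The thrombospondins, secreted regulators of cell-matrix contact, differed from each other. THBS3 (Entrez 7059) changed by -0.39 ± 0.06, from 5403 ± 1258 to 4192 ± 1239, with the groups overlapping, and by -0.23 after GC and length correction. THBS2 (Entrez 7058) had 76.3, 35.7, 62.8 and 61.6 in PHLac-low and 105, 118, 146 and 56.9 in PHLac-high, changed by 0.81 ± 0.29 (SE, limma adjusted p = 0.0213), and was slightly lower in repeat 4, with a change of 1.12 without that repeat. It did not pass without repeat 2 or without repeat 3 (limma adjusted p = 0.114 and 0.0885).

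LOXL2 (Entrez 4017), a lysyl oxidase that cross-links collagen and elastin, rose in every repeat while most collagens fell. Counts were 11765, 16145, 12247 and 18479 in PHLac-low and 14594, 18490.4, 15234 and 21338 in PHLac-high, and the groups overlapped. The change of 0.26 ± 0.05 (SE, limma adjusted p = 0.00218) was close to the median of all listed genes, 0.25. Under upper-quartile scaling it was 0.03 and did not pass (limma adjusted p = 0.652), and after GC and length correction it was 0.50 (limma adjusted p = 5.59e-05).

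Over the matrix class the median log2 changes within repeats 1 to 4 were -0.40, -0.475, -0.45 and -0.55. The groups did not overlap for 11 of the 27, 9 of them lower (13.4% of all listed genes did not overlap in that direction, and 23.3% in the other). Summed normalised counts of the 14 collagens were 119231, 103386, 113134 and 103568 in PHLac-low and 89762, 78083, 84113 and 79862 in PHLac-high. Without COL5A2, which carried most of these counts, they were 41815, 45620.3, 51368 and 32029 in PHLac-low and 31004, 33590.4, 36768 and 19985 in PHLac-high. In both versions each PHLac-high sum lay below the PHLac-low sum of its repeat.

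**Figure D2:**
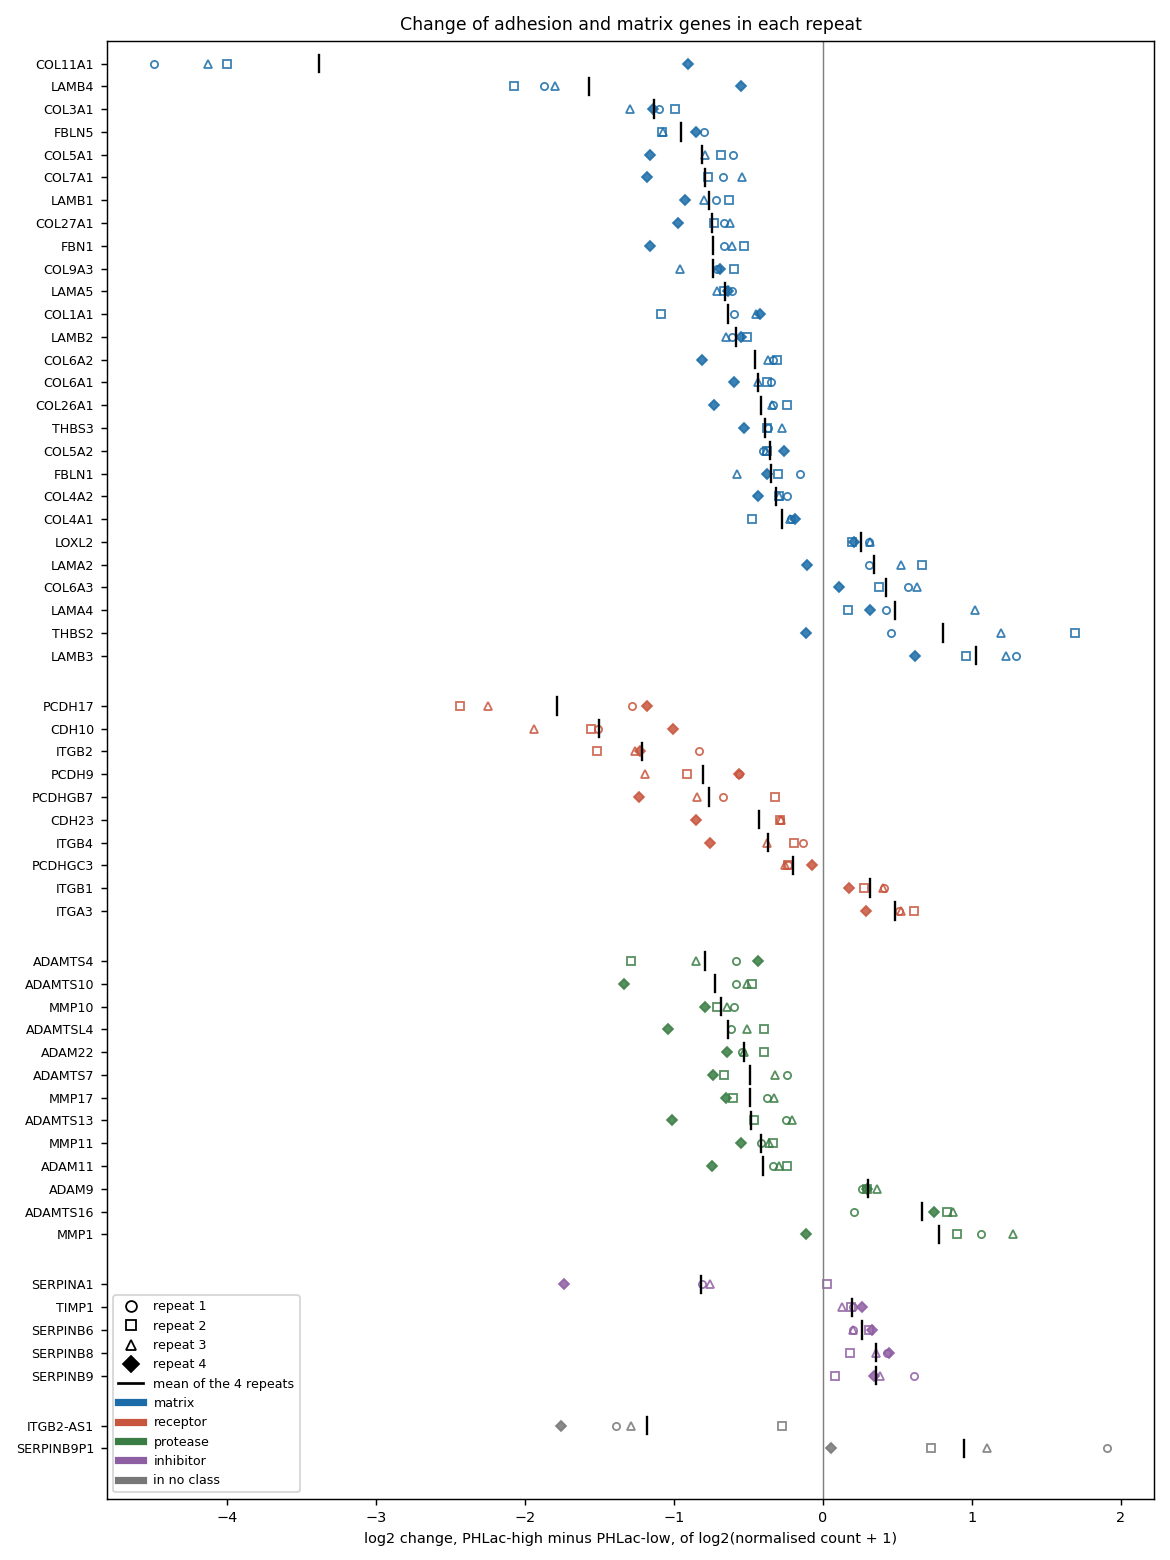
Log2 change of the named genes (PHLac-high minus PHLac-low) in repeats 1 to 4, open symbols for repeats 1 to 3 and filled diamonds for repeat 4, with a bar at the mean and genes grouped by class. Of the matrix genes 21 lie left of 0 and 6 right of it, and of the inhibitors plotted only SERPINA1 lies left of it in the authors' scaling, TIMP1 turning under upper-quartile scaling.

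The receptor class held 4 integrin subunits, of which 2 rose and 2 fell. ITGB1 (Entrez 3688), the shared beta subunit of most matrix-binding integrins, was the most abundant receptor, at 32673, 33426, 34307 and 36026 in PHLac-low and 43348, 40445, 45348 and 40626 in PHLac-high. ITGA3 (Entrez 3675), the alpha subunit that pairs with it to bind laminins, had 7080.3, 6119, 7483 and 6587 in PHLac-low and 10104, 9369, 10748 and 8055 in PHLac-high. Neither gene's groups overlapped, and changes were 0.32 ± 0.06 for ITGB1 and 0.48 ± 0.06 for ITGA3 (SE, limma adjusted p = 0.00161 and 0.00037). Per kb, ITGB1 stood at 9014 and 11216 and ITGA3 at 1395 and 1958 in PHLac-low and PHLac-high. Under upper-quartile scaling ITGB1 was 0.09 and did not pass (limma adjusted p = 0.252), while ITGA3 still passed. Both passed after GC and length correction, at 0.19 and 0.87.

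ITGB4 (Entrez 3691), the hemidesmosome subunit that also binds laminin, went the opposite way. It had 6754, 9787, 10203 and 3777 in PHLac-low and 6147, 8558, 7869 and 2236 in PHLac-high, values that overlap widely, with a within-repeat change of -0.14, -0.19, -0.38 and -0.76. Its mean change was -0.36 ± 0.10 (SE, limma adjusted p = 0.0068), and -0.23 without repeat 4. The transcript has a GC content of 63.7%, and after GC and length correction the value was 0.10 (limma adjusted p = 0.325).

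ITGB2 (Entrez 3689), the beta subunit of leukocyte integrins, was low but clearly separated: 142, 161, 150.1 and 97.6 in PHLac-low and 79.5, 55.7, 62.0 and 41.0 in PHLac-high, a change of -1.21 ± 0.17 (SE, limma adjusted p = 0.000522). The antisense transcript ITGB2-AS1, which overlaps it over 7781 bases on chromosome 21, had 127, 61.5, 85.8 and 60.6 in PHLac-low and 47.9, 50.6, 34.6 and 17.2 in PHLac-high and changed by -1.18 ± 0.26. The libraries mark strand, but whether counting used it is not given in the sources used here, so reads of both genes cannot be told apart with certainty. PTPRC, another leukocyte gene, changed by -1.36 ± 0.13 and CD68, a macrophage marker, by 0.55 ± 0.10.

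Every cadherin and protocadherin in the table fell, 6 of 6, where 41.2% of all listed genes did. CDH10, PCDH17 and PCDHGB7 were scarce, with means over the 8 libraries of 38.9, 39.9 and 72.7 normalised counts. CDH10 (Entrez 1008), a type II cadherin of neural tissue, had 91.8, 40.6, 30.2 and 64.7 in PHLac-low and 31.6, 13.2, 7.16 and 31.8 in PHLac-high, the latter resting on 6 to 27 reads per library, and changed by -1.50 ± 0.26 (SE, limma adjusted p = 0.00125). PCDH17 (Entrez 27253) changed by -1.79 ± 0.30, from 66.9, 70.2, 60.4 and 49.3 to 26.9, 12.2, 11.9 and 21.2, without overlap. PCDH9 went from 657 ± 188 to 385 ± 159 (SD, n = 4), a change of -0.81 ± 0.12. CDH23, a tip-link cadherin of sensory hair cells, changed by -0.43 ± 0.13, and was -0.18 with GC and length correction, which did not pass (limma adjusted p = 0.185).

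PCDHGB7 and PCDHGC3 belong to the gamma protocadherin cluster, whose transcripts share their last exons, so the division of reads between them is uncertain. They changed by -0.77 ± 0.20 and -0.20 ± 0.06. PCDHGC3, with 2551 ± 147 and 2226 ± 178, carried most of the counts. Its call was lost without repeat 2 and without repeat 3 (limma adjusted p = 0.0531 and 0.0516), and its value was 0.01 after GC and length correction.

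In the protease class 10 of 13 genes fell, where 41.2% of all listed genes did. Among those that fell, ADAM11, ADAM22 and ADAMTSL4 belong to these families but are not active proteases. MMP1 (Entrez 4312), the interstitial collagenase that cuts fibrillar collagens including type III, was the most abundant protease and rose. Counts were 14345, 33519.8, 21394 and 23363 in PHLac-low and 29969, 62471, 51864 and 21579 in PHLac-high. In repeats 1 to 3 the PHLac-high library exceeded its PHLac-low partner, in repeat 4 it did not, and the groups overlapped. The change was 0.78 ± 0.19 (SE, limma adjusted p = 0.0049), 1.06, 0.90, 1.28 and -0.12 in repeats 1 to 4, and 1.08 without repeat 4. Per kb of transcript MMP1 had the highest level of the 58 genes in PHLac-high, 21051, and in PHLac-low 11754, next to TIMP1 at 11895.

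MMP10, which lies 9290 bases from MMP1 on chromosome 11, had only 74.6, 80.0, 124 and 44.2 in PHLac-low and 49.1, 48.6, 78.7 and 25.2 in PHLac-high. It was lower in PHLac-high in each repeat, with a mean change of -0.68 ± 0.18 (SE, limma adjusted p = 0.00625). MMP11, a secreted enzyme activated by furin, changed by -0.42 ± 0.07, from 1483 ± 340.4 to 1122 ± 298 (SD, n = 4), and MMP17, a membrane-anchored enzyme, by -0.49 ± 0.11. After GC and length correction MMP10 stood at -0.86 and still passed, while MMP11 (-0.08) and MMP17 (0.02) did not (limma adjusted p = 0.339 and 0.861).

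ADAM9 (Entrez 8754), a membrane sheddase, varied least between repeats: 12578, 12211, 12624 and 12941 in PHLac-low and 15095, 14985, 16231 and 15934 in PHLac-high, with a change of 0.30 ± 0.05 (SE, limma adjusted p = 0.000875) and of 0.26, 0.29, 0.36 and 0.30 within repeats. Under upper-quartile scaling it was 0.08 and did not pass (limma adjusted p = 0.244), and after GC and length correction it was 0.18 and passed. ADAM22 and ADAM11, which lack catalytic activity, changed by -0.53 ± 0.09 and -0.40 ± 0.09. ADAM22, whose transcript has a GC content of 40.7%, stood at -0.67 after GC and length correction, and ADAM11, with 62.2%, at 0.01.

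Of the ADAMTS family 5 of 6 fell, where 41.2% of all listed genes did. ADAMTS4 (Entrez 9507), an aggrecanase, had 409, 443, 365 and 173 in PHLac-low and 272, 181, 202 and 127 in PHLac-high, and changed by -0.79 ± 0.15 (SE, limma adjusted p = 0.00187). ADAMTSL4, which has no catalytic domain and binds fibrillin microfibrils, was the most abundant of them, at 4076 ± 1167 and 2746 ± 1088 (SD, n = 4), with a change of -0.64 ± 0.10. ADAMTS10, another microfibril-associated member, changed by -0.72 ± 0.15, ADAMTS7 by -0.49 ± 0.10 and ADAMTS13, the protease of von Willebrand factor, by -0.48 ± 0.13 (-0.31 without repeat 4). ADAMTS16 (Entrez 170690) rose without overlap, from 113, 77.5, 91.1 and 83.2 to 131, 139, 168 and 140.3, by 0.67 ± 0.16 (SE, limma adjusted p = 0.00511). With GC and length correction ADAMTS4 and ADAMTS16 still passed and the other four did not (limma adjusted p from 0.0567 to 0.966).

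Inhibitors rose in 5 of 6 cases, by small amounts, where 58.7% of all listed genes rose. TIMP1 (Entrez 7076), an inhibitor of MMPs, rose by 0.20 ± 0.05 in the authors' scaling, from 13025 ± 1410.2 to 14891 ± 1051 (SD, n = 4), and stood at -0.03 under upper-quartile scaling and 0.30 after GC and length correction. SERPINB9, an inhibitor of granzyme B, and SERPINB6, another intracellular serpin, are neighbours on chromosome 6 and changed by 0.36 ± 0.08 and 0.26 ± 0.05, and SERPINB8 by 0.35 ± 0.08. Upper-quartile scaling left 0 of the 5 past the limma threshold, also at an unadjusted p of 0.05 (0 as higher), while edgeR and DESeq2 in the authors' scaling each called 5.

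The pseudogene SERPINB9P1, 10759 bases from SERPINB9, had 52.3, 87.4, 80.6 and 58.5 in PHLac-low and 199, 145, 174 and 60.9 in PHLac-high. SERPINB9P1 changed by 0.95 ± 0.27 (0.63 without repeat 1 and 1.24 without repeat 4). It resembles its parent gene, so the division of reads between them is uncertain. SERPINA1 (Entrez 5265), an inhibitor of neutrophil elastase, was the 1 inhibitor that fell: 43.7, 108, 178 and 72.9 in PHLac-low and 24.6, 110.4, 105 and 21.2 in PHLac-high, a change of -0.82 ± 0.27 (SE, limma adjusted p = 0.0166). The groups overlapped, and the change was -0.81, 0.03, -0.76 and -1.74 in repeats 1 to 4, -0.51 without repeat 4.

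**Figure D3:**
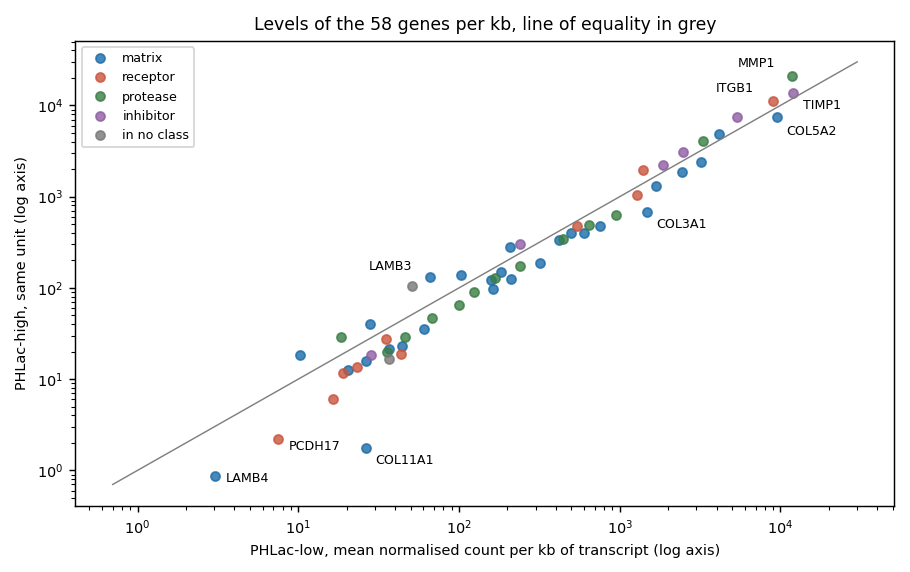
Mean normalised count per kb of transcript in PHLac-low (x, log axis) and PHLac-high (y, log axis) for the 58 genes, coloured by class, with the line of equality. MMP1, TIMP1, COL5A2 and ITGB1 stand at the top of the range and LAMB4, PCDH17 and COL11A1 at the bottom in PHLac-high.

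Set beside COL3A1 in each repeat, no class fell as far. COL3A1 changed by -1.10, -0.99, -1.29 and -1.14 in repeats 1 to 4. The receptor median was -0.425, -0.30, -0.61 and -0.80. The protease median was -0.37, -0.40, -0.33 and -0.65, and the inhibitor median 0.32, 0.19, 0.28 and 0.30. All 4 class medians lay above COL3A1 in every repeat, the matrix median by 0.52 to 0.845. Matrix, receptor and protease medians lay below the median of all listed genes (0.215, 0.18, 0.17 and 0.20) and the inhibitor median above it in every repeat. Which of matrix, receptor and protease was lowest varied: receptors in repeats 1, 3 and 4 and matrix in repeat 2. The receptor value rests on scarce genes: with means of at least 100 the medians over the 4 repeats were -0.28 for receptors, -0.44 for matrix genes and -0.485 for proteases. Medians describe the listed members only, and no test was made across members.

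**Figure D4:**
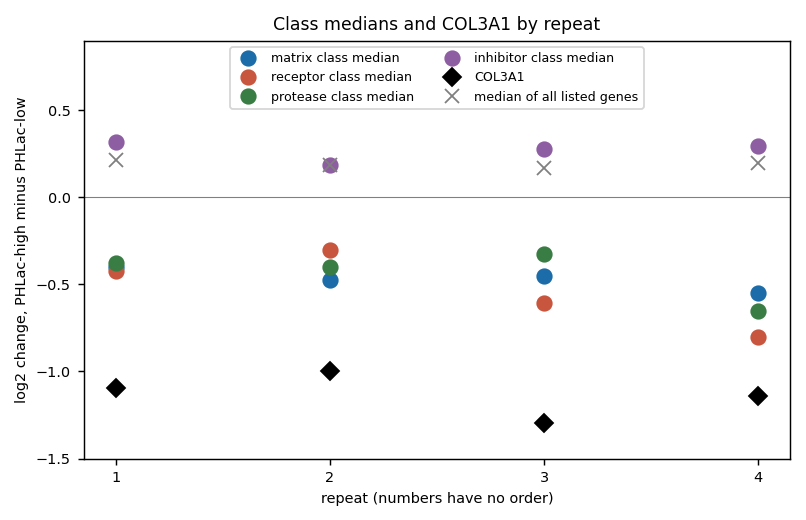
Median log2 change of each class, of all listed genes (crosses) and of COL3A1 (diamonds) in repeats 1 to 4. COL3A1 lies between -1.295 and -0.995, the matrix, receptor and protease medians lie between it and 0, and the inhibitor medians lie above 0.

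The 58 genes also differed between repeats, a contrast that did not select the table, although the selection favoured genes with little residual spread. In limma's F test of the repeats, 39 of 58 passed an adjusted p of 0.05, against 57.6% of all listed genes: 19 of 27 matrix genes, 5 of 10 receptors, 10 of 13 proteases and 5 of 6 inhibitors. The range of repeat means had a median of 0.83 on the log2 scale for the 58 genes and 0.53 for all listed genes. COL5A1 had a range of 1.77 (limma adjusted p = 0.000352) and ITGB4 of 1.66 (adjusted p = 0.000301). These exceed their changes between fractions. The widest range, 2.03, was that of SERPINA1. ADAM9 (0.09, adjusted p = 0.583), ITGB1 (0.10, adjusted p = 0.689) and COL27A1 (0.22, adjusted p = 0.3) varied little. A model without the repeat called fewer members, 17 of 58, against 31.0% of all listed genes: 4 as higher and 13 as lower, against 20.3% and 10.7%. These included COL3A1 (limma adjusted p = 0.00715), COL11A1, LAMB3 and ITGA3.

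Members that lie close together in the genome were set side by side. Of 12 pairs less than 250000 bases apart, 9 changed in the same direction and 3 in opposite directions. With 41 members lower and 17 higher, members far apart would often share a direction too, and no comparison with such pairs was made. The opposite pairs included MMP10 with MMP1 and ITGA3 with COL1A1 (93619 bases apart on chromosome 17). Pairs that share exons or overlap, such as ITGB2 with ITGB2-AS1, are not independent. Nor are the pairs among SERPINB9P1, SERPINB9 and SERPINB6, which have genes in common.

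Base composition moved with direction. The 41 members that fell had a median transcript GC content of 59.1% and the 17 that rose 49.3%, against 56.8% and 46.6% for all listed genes that were lower and higher. With the GC and length correction, 33 members were lower and 25 higher. Of them 39 passed, against 74.4% of the table: 23 as lower and 16 as higher, against 25.0% and 49.4%. Medians moved to -0.21 for matrix genes, -0.39 for receptors, -0.01 for proteases and 0.25 for inhibitors, against 0.17 for all listed genes. The 8 genes whose sign turned, named above, went from lower to higher, none of them past the limma threshold after correction (adjusted p from 0.187 to 0.946). COL3A1 (-1.05), COL11A1 (-3.42), LAMB1 (-0.74), PCDH17 (-1.86), LAMB3 (1.31) and ITGA3 (0.87) were among those that still passed with values about as large or larger. LAMA5 (-0.21), LAMB2 (-0.21), COL27A1 (-0.39), COL7A1 (-0.36) and COL5A1 (-0.50) also passed but shrank. The part of base composition in the deposited changes was not tested.

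**Figure D5:**
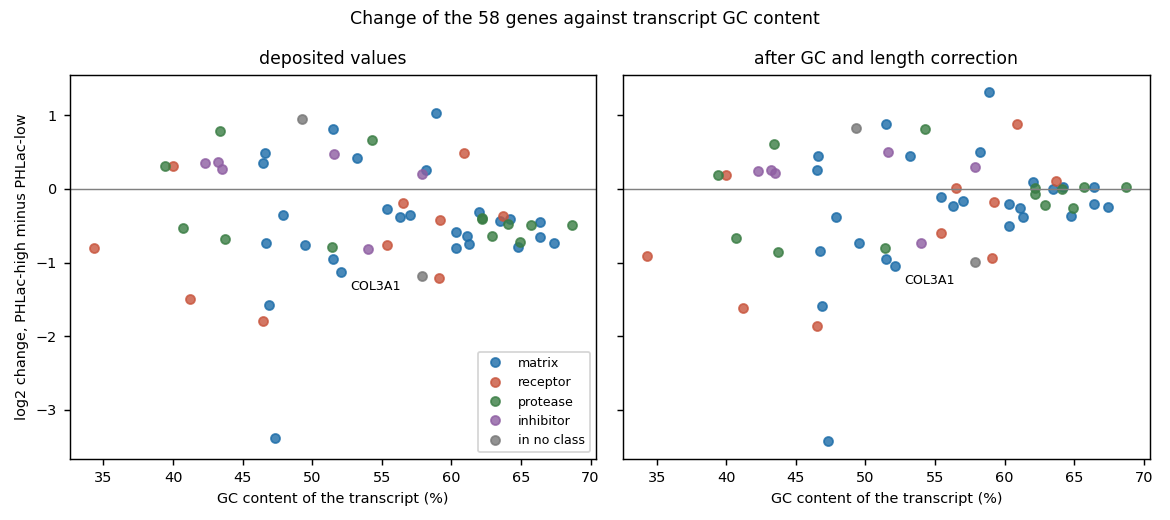
Log2 change of the 58 genes against transcript GC content (%), with the deposited values at left and values after GC and length correction at right, coloured by class. The 41 genes that fell have a median GC content of 59.1% and the 17 that rose 49.3%, and COL3A1 and COL11A1, at 52.1% and 47.3%, move little between the panels.

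Other matrix and adhesion genes were taken from 6 lists chosen by function. Of their 95 genes 35 were in the table, 12 higher and 23 lower, where 58.7% and 41.2% of all listed genes were. Among 29 matrix glycoproteins and proteoglycans, 10 were listed and 8 fell, including VCAN (-1.43 ± 0.16), SPARC (-0.83 ± 0.14), a collagen-binding protein, and the basement membrane proteoglycans HSPG2 (-0.70 ± 0.08) and AGRN (-0.51 ± 0.07). TGFBI, which binds collagen and integrins, rose from 310.4 ± 28.9 to 661 ± 159 (SD, n = 4), a change of 1.06 ± 0.12, and LTBP2 by 0.44 ± 0.07. In the collagen processing list 4 of 18 were in the table, and 3 fell, FKBP10, P3H2 and MIA3, while the cross-linking enzyme TGM2 rose by 0.55 ± 0.06 (SE, limma adjusted p = 0.000138).

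Cell-surface matrix receptors other than integrins were split. Of 10, 7 were listed, and CD44, the hyaluronan receptor, rose from 25917 ± 3453 to 39923 ± 1471 by 0.63 ± 0.07, with SDC4 (0.47 ± 0.07) and DDR2 (0.44 ± 0.08). DAG1 (-0.54 ± 0.08), a laminin receptor, SDC1, SDC3 and DDR1 fell. The integrin adhesion complex gave 6 of 17, 3 higher (VCL, FERMT2 and BCAR1) and 3 lower (TNS1, TNS3 and ACTN4). All 3 listed of the 9 cadherin complex and desmosome genes fell, where 41.2% of all listed genes did. Changes were -1.40 ± 0.14 for PKP2, -0.88 ± 0.09 for JUP and -0.59 ± 0.07 for DSG2 (SE, limma). Among the other matrix proteases 5 of 12 were listed: the plasminogen activators PLAT, from 60.9 ± 13.8 to 339 ± 66.1 (SD, n = 4), and PLAU rose by 2.47 ± 0.22 and 0.59 ± 0.11, CTSL rose by 0.43 ± 0.06, and CTSK and HTRA1 fell. AGRN, FKBP10, DDR1 and ACTN4 were above 0 after GC and length correction.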

How the data were processed

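RNA of sorted cells was selected for mRNA, made into strand-marked (dUTP) libraries and sequenced from both ends, per the labels' protocols. STAR, SAMtools, Subread, DESeq2 and the build hg38 are named in the submitters' processing notes, without roles or versions, and the annotation and filters are not given in the sources used here. The authors deposited 1 table of 3666 genes with a read signal per library: 100% of its values were whole multiples of 1 step per column (within 0.01 read), so each is a read count divided by a size factor (0.755 to 2.09). The deposited log2 fold changes and adjusted p-values (all at most 0.05) show that only genes past that threshold are listed. No column was left unmatched (0).

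The tests used log2(value + 1) in limma 3.58.1 (R 4.3.3), with trended moderation, the repeat as a block and Benjamini-Hochberg adjustment over all 3666 genes. The series' design text states the pairing. After subtraction of the group mean, both libraries of a repeat correlated across genes at 0.53, 0.66, 0.73 and 0.76, and libraries of different repeats at 0.27 at most. Deviations from a group mean cancel out, so positive correlations within repeats force those between repeats down, and the gap is no test of the pairing. Over the members alone, the libraries of repeats 1 to 4 correlated at 0.74, 0.51, 0.83 and 0.42. Recovered reads were tested with edgeR 4.0.16 and DESeq2 1.42.0, which each called 3666 genes. On simulated counts of the 3666 genes for this comparison, 200 were changed, in both directions. Of them limma recovered 85% of the genes changed by 0.5 and 100% of those changed by 1 on the log2 scale, with 9 false calls. The changed genes were drawn from those with means of at least 100, so the rates do not cover scarcer genes. The spread and the repeat effects were set values and not estimated from these data. Transcript length and GC content came from the longest coding transcript (or the longest, for noncoding genes) in GENCODE release 29, found for 95.7% of the listed genes and all 58 members. The correction subtracted lowess curves (span 0.3, centred at their median) from each library and was added after the data were seen. Members, classes, lists and the rule for named genes (per family, the most abundant and the most changed, up to 4, with means of at least 50, to which the other members were added) were chosen with earlier results of these data known. Of the 58 members, 1 is counted but not reported here by name.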

Additional observations from a re-analysis of the deposited data

Results flagged for a closer look

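Each reported member's 4 log2 values per fraction were checked for a library far from the others, by its gap to the nearest other library as a share of the group's range, against Dixon's critical value for 4 samples. Of 114 groups 6 were picked out, and chance gives about 1 in 20, or 5.7. The PHLac-low library of repeat 4 was low for COL3A1 (0.889) and COL26A1 (0.908), and the PHLac-high library of repeat 4 was low for COL26A1 (0.869), ADAMTSL4 (0.839) and ADAMTS7 (0.879). The PHLac-low library of repeat 2 was low for FBN1 (0.977). No cause was tested.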

How the results depend on the processing

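All alternatives planned were run. Without the repeat block, limma called 1135 listed genes and 17 members. Among these members were 1 matrix gene higher and 9 lower, 1 receptor higher and 2 lower, and 2 proteases higher and 1 lower. It called 0 inhibitors higher (1 at an unadjusted p under 0.05) or lower (0). Upper-quartile scaling called 2360 listed genes in either direction. As higher it called 1 matrix gene, 1 receptor, 2 proteases and 0 inhibitors (0 unadjusted), while 41 members passed as lower. Class medians in this scaling were -0.678 for matrix genes, -0.819 for receptors, -0.712 for proteases and 0.084 for inhibitors, and TIMP1 turned to -0.028. With means of at least 100, 4 receptors and 0 inhibitors were called lower, since scarce genes were no longer tested, and the receptor median was -0.282.

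GC and length correction, chosen after seeing the data, left 13 matrix genes, 5 receptors and 3 proteases lower, with medians of -0.208 for matrix genes and -0.006 for proteases. It turned ITGB4 (0.10), PCDHGC3 (0.005), ADAM11 (0.013), MMP17 (0.022), ADAMTS7 (0.031), COL26A1 (0.024), COL4A2 (0.095) and COL6A2 (0.031). With the correction and no block, 1070 listed genes and 15 members were called: 2 matrix genes higher and 6 lower, 1 receptor higher and 4 lower, 1 protease higher and 1 lower, and 0 inhibitors higher (2 unadjusted) or lower (0). Leaving out each repeat in turn gave 3 to 6 matrix genes higher and a matrix median of -0.494 to -0.386. The causes were not tested.

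Over 10 alternatives, 501 of 580 member values kept their direction and side of the threshold, 70 no longer passed and 9 turned. The 2 pseudocounts and DESeq2 changed no member's call, and edgeR and DESeq2 each called 17 members higher and 41 lower. The depth of whole libraries is unknown. COL11A1, LAMB4, CDH10 and PCDH17 rest on few reads, at 8, 3, 6 and 10 in their lowest library. Genes outside the table were not analysed here.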
